A study of Canis lupus familiaris with 4 samples.

Results

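The genes described here encode the ESCRT machinery (endosomal sorting complexes required for transport) and further proteins that form exosomes, and they were taken by gene symbol from a list of 35. Of these, 27 were present under their symbol among the 30951 genes of the table, with 1 row each. UBAP1, VPS25, CHMP3, CHMP5, CHMP1B, VPS4A, SDCBP and FLOT2 were not analysed here under their symbols. Total RNA was sequenced from mesenchymal stromal cells of adipose tissue of 4 dogs, 1 primary cell line and 1 library per dog, and the series title concerns the antimicrobial activity of the lyosecretome of such cells. All 4 cultures had the same handling: growth in DMEM that held fungizone, streptomycin, penicillin and fetal bovine serum (10%), under 5% CO2 at 37 °C, then 48 h in 24-well plates with no agent named in the labels. The labels give neither the age, sex nor breed of the dogs nor the passage of the cells. With 1 group there was no contrast between conditions, so the values describe the level of each gene and its spread between dogs. Each value rests on 1 culture and 1 library per dog.

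Exosomes are vesicles that bud into the lumen of a late endosome, which becomes a multivesicular body and releases them when it fuses with the cell surface. ESCRT-0 gathers ubiquitinated cargo, ESCRT-I and ESCRT-II deform the membrane, ESCRT-III filaments cut the neck of the bud, and the ATPase VPS4 takes the filaments apart for reuse. ALIX (gene PDCD6IP) links cargo bound by syntenin to ESCRT-III, and ceramide, flotillins and arrestin-domain proteins serve routes that need fewer ESCRT subunits or none. The same complexes act in cytokinesis, membrane repair and the budding of enveloped viruses, and mesenchymal stromal cells are widely grown as a source of vesicles.

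Reads assigned to genes numbered 7474011 in dog 4, the shallowest library, and 15203607 to 22411268 in the other 3. Of 13 expected mesenchymal stromal markers 12 passed the level test described later as above the median detected gene, among them COL3A1 at 12.13 ± 0.16 (log2 level). NT5E, which encodes the defining marker CD73, was called below, at -2.17 ± 0.50. Every ± on a level is the SD over the 4 dogs. Of the blood cell markers, 9 had a row, of which 7 were not detected, 1 was below and CD79A was above at 5.31 ± 0.17. No endothelial, adipocyte or epithelial and mesothelial marker was above, VWF standing at -0.39 ± 1.29, PPARG at 0.81 ± 0.69 and KRT18 at -1.22 ± 2.58. The reads of KRT18 numbered 9, 9, 25 and 435 in dogs 1 to 4.

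Most of the ESCRT genes measured had RNA levels above that of the median detected gene, with at least 1 such gene in each complex. A level is the deposited log2 value minus the median of all detected genes of the same library, a detected gene being one with reads in at least 2 of the 4 libraries. Of the 27 genes 26 were detected and tested, and 22 of these (84.6%) lay above the median detected gene in all 4 dogs, against 45% of all detected genes. By limma's test against a distance of 1 log2 unit, adjusted by Benjamini-Hochberg over all 17200 detected genes, 17 of the 26 (65.4%) were above, 1 (3.85%) was below and 8 were neither. Over all detected genes 33.3% were called above and 35.8% below. The median level of the 26 genes was 1.85, 1.91, 1.61 and 1.70 in dogs 1 to 4, against a median of -0.02 over the mean levels of all detected genes. Together the 27 genes took 1213, 1211, 1118 and 1066 CPM (counts per 1000000 reads assigned to genes) in dogs 1 to 4. Levels are not corrected for gene length. A call above or below the median detected gene compares genes, so it depends on gene length as well as on RNA level. Comparisons of 1 gene between dogs do not carry this limit, and no order of the 27 genes is drawn from the levels. Genes of the marker and further pathway lists named for a large or small uncorrected value are named for that value only.

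**Figure D1:**
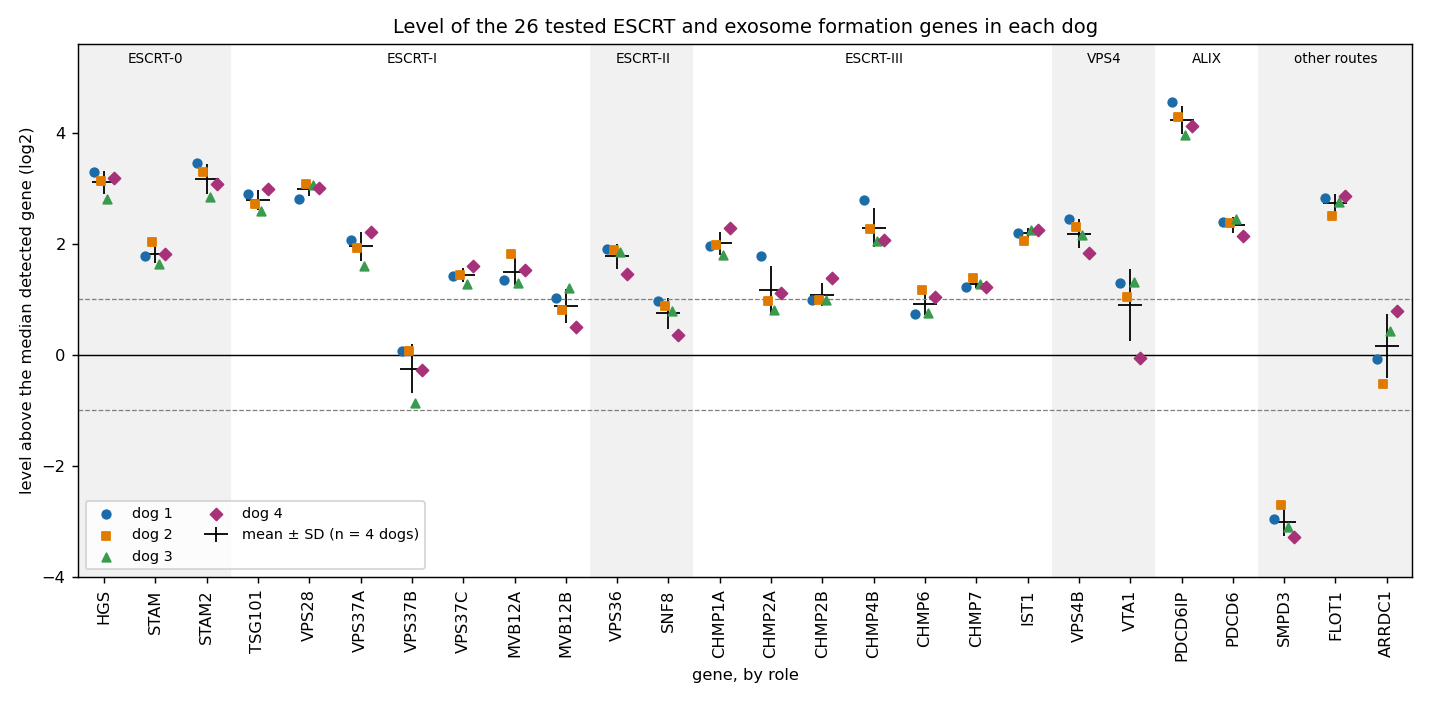
Level of each of the 26 tested genes in each dog (y axis, log2 above the median detected gene of the library), with genes on the x axis grouped by role. Symbols are dogs, black bars are mean ± SD (n = 4), the solid line is the median detected gene and the dashed lines the distance of 1; SMPD3 alone lies below the lower dashed line, and 22 genes have all 4 dogs above 0.

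These calls depend on what a typical gene is taken to be. When the reference was the median of the 13834 genes with reads in all 4 dogs, 10 of the 26 genes were above (HGS, STAM2, TSG101, VPS28, CHMP4B, IST1, VPS4B, PDCD6IP, PDCD6 and FLOT1), beside 21.7% of all detected genes. These 10 held no gene of ESCRT-II. At a distance of 2 log2 units 7 were above, beside 19.1% of all detected genes, with no gene of ESCRT-II, ESCRT-III or VPS4. A gene above in each complex was therefore found with the main reference and distance but not in these 2 settings. With 1 dog left out and the reference genes kept, 16 of the 17 calls above held without any 1 dog, and CHMP7 lost its call without dog 1, 2 or 3. When the reference genes were also chosen anew from the remaining dogs, 14 held, with VPS37C, MVB12A and CHMP7 lost in at least 1 such refit.

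ESCRT-0 consists of HGS, which binds ubiquitin and endosomal lipid, and of STAM or STAM2, its ubiquitin-binding partners. All 3 genes were above the median detected gene, STAM at 1.81 ± 0.16 and STAM2 at 3.17 ± 0.27. HGS had levels of 3.30, 3.13, 2.81 and 3.18 in dogs 1 to 4, with an SD of 0.21. It had 1538, 1393, 1111 and 1414 normalized reads in dogs 1 to 4 (reads divided by the library's size factor). STAM2 had 1716, 1556, 1134 and 1323, and its level followed that of HGS, with dog 1 highest and dog 3 lowest for both. The difference between HGS and STAM2 within a dog had an SD of 0.12 between dogs, smaller than the SD of either gene. STAM had 527, 637, 478 and 536 normalized reads, with dog 2 highest and dog 3 again lowest.

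ESCRT-I is a rod-shaped assembly of TSG101, VPS28, a VPS37 and an MVB12 or UBAP1 subunit, of which the last was not analysed. TSG101, which binds short proline-rich motifs of cargo adaptors and viral Gag proteins, stood at 2.79 ± 0.18, with 1154, 1035, 946 and 1243 normalized reads. VPS28, the subunit that contacts ESCRT-II, stood at 2.98 ± 0.12, with 1088, 1332, 1325 and 1253. The highest and the lowest dog differed by 1.31-fold for TSG101 and by 1.22-fold for VPS28.

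The 3 VPS37 genes encode interchangeable subunits and did not share one pattern. VPS37A (1.95 ± 0.27) and VPS37C (1.43 ± 0.13) were above the median detected gene, and VPS37B, at -0.25 ± 0.44, was neither above nor below. VPS37B had 147, 149, 69 and 111 normalized reads in dogs 1 to 4. Dog 3 was lowest, at a level of -0.87, and dogs 1 and 2 were nearly equal, at 0.07 and 0.06. Without dog 3, left out after its value was seen, the SD of VPS37B was 0.20. VPS37A was also lowest in dog 3 (1.59) and highest in dog 4 (2.22), while VPS37C spanned 1.28 to 1.59. VPS37C overlaps the protein-coding LOC483802 in the RefSeq annotation, and the part of shared reads was not tested.

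Of the accessory MVB12 subunits, MVB12A was above the median detected gene, at levels of 1.35, 1.82, 1.29 and 1.53 (SD 0.24), and MVB12B did not pass the test at 0.88 ± 0.30. MVB12A had 383, 548, 373 and 438 normalized reads and was highest in dog 2. MVB12B had 301, 262, 352 and 204 and was highest in dog 3 and lowest in dog 4. The dogs therefore took a different order for each of the pair, and the difference between them ranged from 0.08 in dog 3 to 1.03 in dog 4.

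ESCRT-II bridges ESCRT-I to ESCRT-III, and its subunits VPS36 and SNF8 were measured. VPS36, which binds ubiquitin and lipid, was above the median detected gene at 1.77 ± 0.22, and SNF8 did not pass at 0.75 ± 0.28. VPS36 had 577, 575, 558 and 412 normalized reads in dogs 1 to 4. SNF8 had 290, 277, 257 and 182. Both were lowest in dog 4 and close together in dogs 1 to 3, and the difference between them varied by an SD of 0.07 only. In the RefSeq annotation VPS36 overlaps CKAP2 and SNF8 overlaps UBE2Z. The level of CKAP2 was 1.65, 2.02, 1.86 and 1.62 in dogs 1 to 4, also lowest in dog 4, and that of UBE2Z was 2.55, 2.30, 2.30 and 2.62, highest in dog 4. The part of shared reads in these values was not tested.

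ESCRT-III genes encode small charged proteins that polymerise into the cutting filament. Of the 8 measured genes, CHMP1A, CHMP4B, CHMP7 and IST1 passed as above, 3 passed in neither direction and 1 was not detected. CHMP4B, the main filament subunit, was above at 2.29 ± 0.35. It had 1078, 756, 643 and 644 normalized reads, with dog 1 above the other 3. CHMP2A, a late-acting subunit that joins VPS4 to the filament, had 524, 293, 261 and 321, again with dog 1 alone high, and did not pass the test at 1.16 ± 0.43. Without dog 1, left out after its value was seen, the SD of CHMP2A was 0.15. CHMP2A minus CHMP4B differed by an SD of 0.17 between dogs, less than either gene. CHMP4B overlaps an annotated pseudogene and CHMP2A overlaps TRIM28, whose level was 4.04, 4.01, 4.20 and 3.78 in dogs 1 to 4. The part of shared reads was not tested.

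CHMP2B, the paralog of CHMP2A that is mutated in a form of frontotemporal dementia, showed another order of dogs. It had 295, 298, 298 and 395 normalized reads and a level of 1.08 ± 0.20, which did not pass. Dogs 1 to 3 were almost equal and dog 4 stood above them. CHMP1A, a regulatory subunit, was likewise highest in dog 4, with 595, 617, 540 and 757 normalized reads and a level of 2.01 ± 0.21, above the median detected gene. It overlaps CDK10 in the RefSeq annotation, whose level was -0.28, 0.10, -0.13 and -0.33. The part of shared reads was not tested. CHMP6, which receives the signal from ESCRT-II, did not pass at 0.92 ± 0.21.

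IST1 and CHMP7 had the smallest SD between dogs of the 26 genes. IST1, an ESCRT-III-like protein that also recruits VPS4, had 707, 651, 746 and 733 normalized reads and a level of 2.19 ± 0.09. It overlaps PKD1L3 in the RefSeq annotation, which had levels of -0.37, 0.24, -0.69 and -0.12. The part of shared reads was not tested. CHMP7, which brings ESCRT-III to the nuclear envelope, had 351, 402, 368 and 351 and a level of 1.28 ± 0.08. The SD of CHMP7 was 1.00 times that expected from counting reads alone, and that of IST1 1.56 times. These ratios were among the smallest of the 26 genes, and that of PDCD6IP was 8.68. CHMP7 was the call nearest the threshold, with an adjusted p of 0.0375 (limma, Benjamini-Hochberg).

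CHMP4C, a paralog of CHMP4B that acts in the abscission checkpoint of cell division, was at the detection limit. It had 2 reads in dog 1 and 0 in the other 3. The 2 reads equal 0.0892 CPM, with an exact Poisson 95% interval from 0.0108 to 0.322 that covers counting error only. The counts of 0 allow up to 0.185, 0.197 and 0.401 CPM in dogs 2 to 4 (3 reads). CHMP4B in the same libraries had 67.0, 50.4, 44.3 and 39.7 CPM.

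VPS4B, the measured gene of the VPS4 ATPases, was above the median detected gene at 2.18 ± 0.26. It had 841, 770, 700 and 544 normalized reads and was lowest in dog 4. VTA1, the cofactor that promotes VPS4 assembly, had 370, 312, 381 and 132. Dogs 1 to 3 lay close together and dog 4 held 2.88-fold fewer reads of it than dog 3. Its level was 1.30, 1.04, 1.32 and -0.06, a mean of 0.90 ± 0.65 that did not pass the test. Without dog 4, left out after its value was seen, the level was 1.22 ± 0.15 with the reference genes kept. Thinned to the depth of the shallowest library, VTA1 had 181, 160, 196 and 61 reads. Thinning keeps each gene's expected share of the reads, so the part of depth in the low value of dog 4 was not tested. NMBR, which overlaps VTA1 in the annotation, was read 14 times in dog 1 and never in dogs 2 to 4. The part of shared reads in the values of VTA1 was not tested.

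In bulk RNA, fewer cells that express a gene and less RNA per cell cannot be told apart, and this holds for every difference between dogs given here. Dog 4 was also the library with the high KRT18 count. The 4 measured epithelial and mesothelial markers, of 7, summed to 58.2 CPM in dog 4, all of it KRT18, and to 1.34 to 1.84 in the others. CDH1 had 0 reads in every dog and EPCAM 1 read, in dog 1. UPK3B, another marker of this list, had 20, 13, 3 and 0 reads in dogs 1 to 4. The 13 mesenchymal stromal markers summed to 95967 CPM in dog 4 and to 135792 to 140059 in the others, a sum made up mostly of collagen reads. Of these 13 markers, 8 were lowest and 4 (ENG, ITGB1, ITGA5 and ITGAV) highest in dog 4, and their median level was 7.07, 6.65, 6.54 and 7.69 in dogs 1 to 4. Among the adipocyte markers, PPARG had levels of 1.17, 1.17, 1.12 and -0.24, and LEP had 0, 1, 4 and 37 reads. CD68, a macrophage marker, had 7, 4, 5 and 9 reads, and its level was -2.09 in dog 4 and -3.12 to -2.96 in the others. Dog 4 was the shallowest library as well. With every library thinned to its depth, the level in dogs 1 to 4 was 1.80, 1.73, 1.83 and 1.35 for VPS36 and 0.98, 0.91, 0.75 and 0.18 for SNF8, so both stayed lowest in dog 4. CHMP2B stayed highest there, at 0.85, 0.67, 0.90 and 1.29. Thinning keeps each gene's expected share of the reads. The parts of depth and of the marker differences in the values of dog 4 were not tested.

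**Figure D2:**
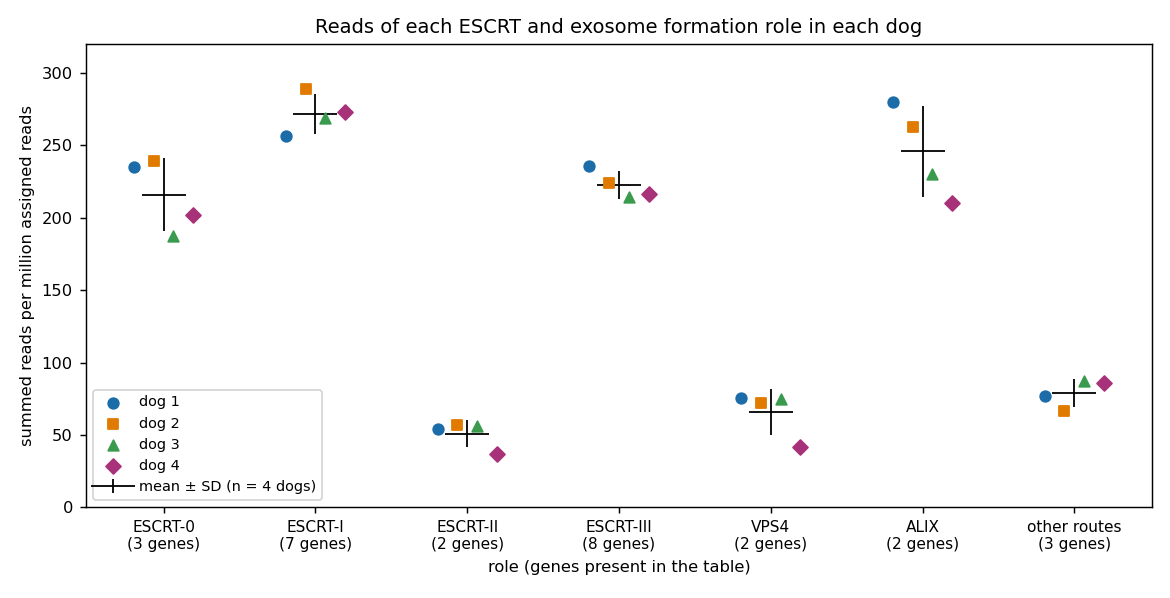
Summed CPM (y axis) of the genes of each role (x axis, with the number of genes in the table) in each dog; black bars are mean ± SD (n = 4). Within a role the dogs can be compared: dog 4 was lowest for ESCRT-II (36.7) and for VPS4B with VTA1 (41.7), with a gap to the other 3, while ESCRT-III spanned only 214 to 236.

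PDCD6IP encodes ALIX, which recruits CHMP4 proteins to membranes and links them to syntenin. It had 3695, 3123, 2482 and 2735 normalized reads in dogs 1 to 4, and dog 1 was highest and dog 3 lowest. Its level was 4.23 ± 0.25, above in 4 of 4 dogs (limma, Benjamini-Hochberg adjusted p = 9.78e-09). PDCD6, the calcium-binding partner known as ALG-2, stood at 2.34 ± 0.14 and was above as well, with 815, 819, 854 and 677 normalized reads. The difference between STAM2 and PDCD6IP, from separate complexes, had one of the smallest SDs of the 325 pairs, at 0.06.

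Of the 3 measured genes of routes with fewer ESCRT subunits, 1 was above, 1 below and 1 neither. SMPD3, a neutral sphingomyelinase that makes ceramide for vesicle budding, was the one gene below, at -3.01 ± 0.24 (limma, Benjamini-Hochberg adjusted p = 1.41e-05, below in 4 of 4 dogs). With all genes of the table as reference its level was 0.38 and 0 genes were called below, so that setting could not test the call. It had 7, 9, 4 and 1 reads in dogs 1 to 4, equal to 0.312, 0.554, 0.263 and 0.134 CPM. The exact Poisson 95% intervals of these overlapped between all dogs, from 0.126 to 0.644 in dog 1 and from 0.00339 to 0.745 in dog 4, so no difference between dogs was detectable at this depth. The deposited scale flattens near 0 reads, so the level understates how far SMPD3 lies from the median. Of the further pathway genes, the sphingomyelinase genes SMPD1 (1.77 ± 0.13) and SMPD2 (1.42 ± 0.49) were above.

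FLOT1, a scaffold protein of membrane rafts, was above the median detected gene at 2.73 ± 0.16, with 1099, 895, 1064 and 1132 normalized reads. ARRDC1, an adaptor that recruits TSG101 to the cell surface for direct budding, was neither above nor below at 0.16 ± 0.58. It had 131, 92, 198 and 254 normalized reads, so dogs 3 and 4 were above dogs 1 and 2, by 2.75-fold between dog 4 and dog 2. The level was 0.79 in dog 4 and -0.53 in dog 2. With the reference genes kept, its mean changed sign without dog 4 (-0.055) and stayed positive without dog 1 (0.23), 2 (0.38) or 3 (0.063).

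**Figure D3:**
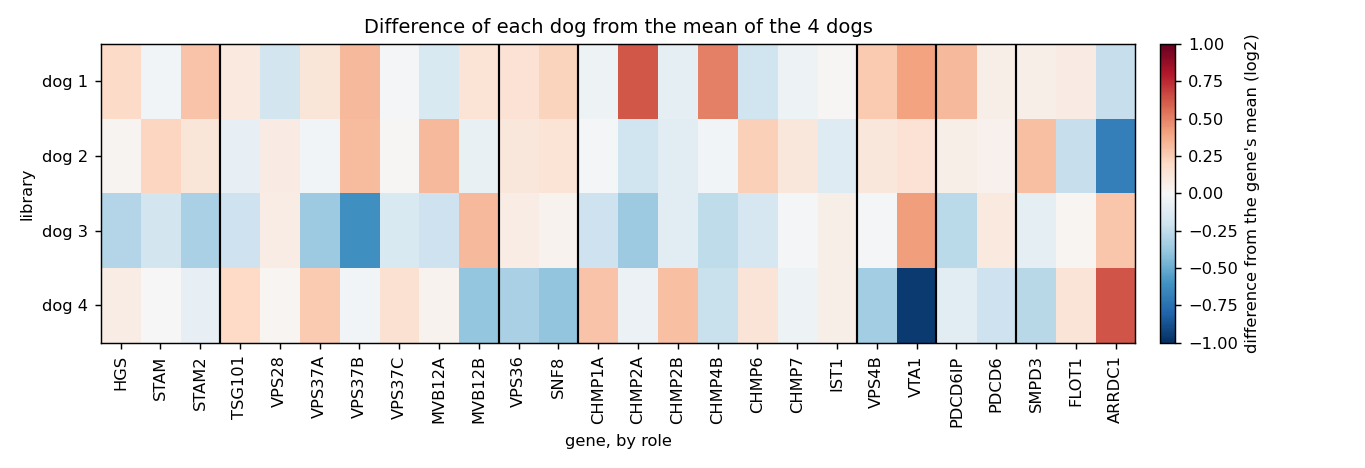
Difference of each dog (rows) from the mean level of the 4 dogs for each tested gene (columns, grouped by role), in log2 units; red is higher and blue lower. The strongest colours are VTA1 low and ARRDC1 high in dog 4, ARRDC1 low in dog 2, CHMP2A high in dog 1 and VPS37B low in dog 3; IST1 and CHMP7 are pale in all 4.

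The spread between dogs was small in log2 units for most of the genes. For 22 of the 26 the SD was still over 2 times that expected from counting reads alone. The median SD of the 26 was 0.23, from 0.08 for CHMP7 to 0.65 for VTA1, and that of all detected genes was 0.36. Since the spread falls with level, each SD was set against the trend of limma, the SD of genes of the same level. The SD was below this trend for 19 of the 26 genes (73.1%), and for 56% of all detected genes. The ratio to the trend had a median of 0.81, against 0.93 over all detected genes. The highest and lowest dog were more than 1 log2 unit apart for VTA1 and ARRDC1, that is 2 of 26 (7.69%), and for 35.9% of all detected genes. These 2 shares were not matched for level, so they do not show a smaller spread than genes of like level. The median SD of detected genes was 0.49 around a level of -3.41 and 0.26 around 1.53. In 2 of the 26 (7.69%), VPS36 and CHMP2B, 1 dog stood apart from the other 3 by Dixon's criterion, as in 5.36% of all detected genes. Neither met the criterion after thinning to equal depth, which also changed the scale and the reference genes. The gap of dog 4 to the nearest dog was then 0.38 for each, against 0.40 before. VTA1, CHMP2A and VPS37B, described above also without their most distant dog, did not meet the criterion with all 4 dogs.

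The test of variability passed no gene of the set or of the whole table, so it does not show that the 26 genes are stable. In the F test of the variance against the trend 0 of 26 passed after Benjamini-Hochberg adjustment and 0 of 26 had an unadjusted p under 0.05 (limma, smallest adjusted p = 0.98). Over all detected genes 0% passed (smallest adjusted p = 0.0796) and 5.2% had an unadjusted p under 0.05. VTA1 had the largest ratio to the trend, 2.03 (unadjusted p = 0.0643, limma), followed by ARRDC1 (1.51), CHMP2A (1.41) and CHMP4B (1.35). Without dog 4 the median SD was 0.18 for the 26 genes and 0.28 for all detected genes.

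**Figure D4:**
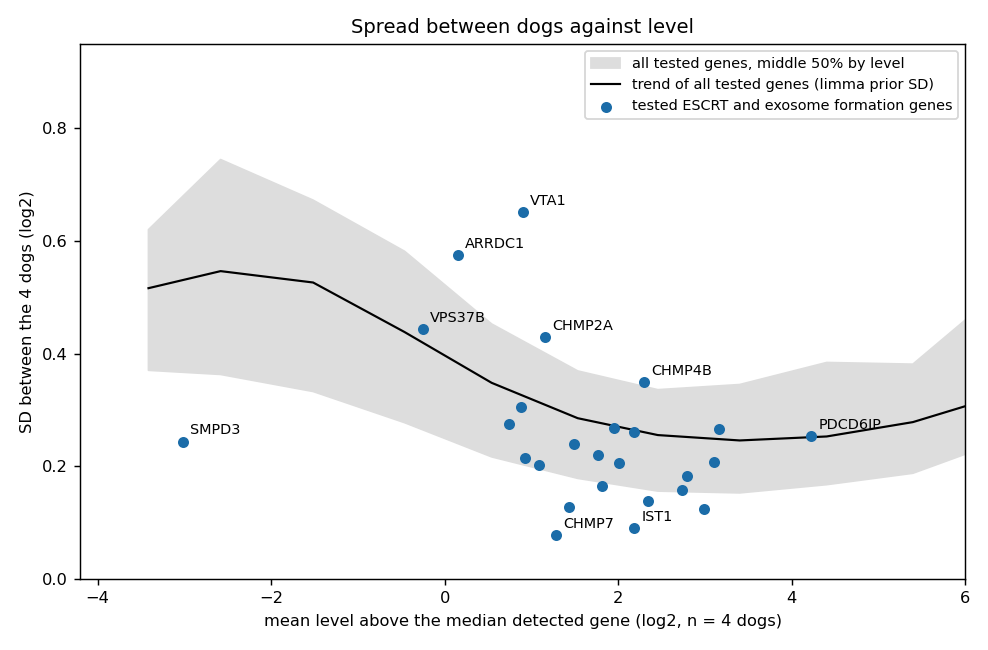
SD between the 4 dogs (y axis, log2) against mean level (x axis, log2 above the median detected gene). Blue points are the 26 tested genes, the grey band holds the middle 50% of all tested genes at each level and the black line is their trend; 19 of the 26 points lie below the line, and VTA1, ARRDC1, CHMP2A and CHMP4B lie farthest above it relative to its height.

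The dogs did not share one order across the set. Dog 3 had the lowest level for 13 of the 26 genes (50%), among them all 3 genes of ESCRT-0, TSG101, PDCD6IP and CHMP4B, whereas it was lowest for 31.1% of all detected genes. Dog 4 was lowest for 7, including both of ESCRT-II, VPS4B, VTA1 and PDCD6, and highest for 7 others, 26.9% in each case, against 28.8% and 36.8% of all detected genes. Dog 1 was highest for 9 (34.6%), against 22.4%, and dog 2 for 6 (23.1%), against 17.4%. Among detected genes with a mean over 100 normalized reads, dog 3 was lowest for 27.6% and dog 4 for 35.1%. Of these better-read genes dog 4 was highest for 32.1%, dog 1 for 27.3% and dog 2 for 16.2%. The SD of the difference between 2 genes had a median of 0.32 over 51 pairs within a role and of 0.32 over 274 pairs across roles. It was smaller than the SD of both genes for 7 of 51 pairs (13.7%) and 38 of 274 pairs (13.9%). These pairs share genes and the same 4 libraries, so they were not tested.

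Most further genes of the pathway, taken from 3 lists, were also above. Of the 72 tested, 46 were above and 8 below, beside 33.3% and 35.8% of all detected genes. Of 26 tested ESCRT subunits and regulators 16 passed as above and 3 as below. The ubiquitin ligases NEDD4 (3.69 ± 0.21) and NEDD4L (3.46 ± 0.20), which mark cargo for ESCRT sorting, were above, and the ESCRT-I subunit gene UBAP1L had 0, 0, 1 and 2 reads. Among 23 tested genes of vesicle cargo and membrane organisation 17 were above and 2 below. The tetraspanin CD63 (5.79 ± 0.20) and the caveolar protein gene CAVIN1 (5.54 ± 0.30) were above, and heparanase (HPSE, -2.85 ± 0.35), which trims syndecans for syntenin, was below. Of 23 tested genes of vesicle transport and release 13 passed as above and 3 as below, with the actin-binding CTTN (4.68 ± 0.14) and the late endosomal RAB7A (4.08 ± 0.17) above and the myosin MYO5B (-3.18 ± 0.67) below. After adjustment 0 of these 72 genes passed the variability test (limma, smallest adjusted p = 0.712). At an unadjusted p under 0.05 in this F test (limma) there were 2 of 72, ARRDC4 (0.0182) and the tetraspanin gene CD9 (0.046). They were named after their values were seen. Over all detected genes 5.2% had an unadjusted p under 0.05, so the 2 are not read as a result.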

How the data were processed

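Total RNA of 4 primary canine adipose stromal cell lines, 1 library per dog, was analysed. Libraries came from 10 ng of RNA with a stranded, ribosomal RNA-depleting kit, per the labels' protocols. FastQC 0.12.1, Trimmomatic 0.39, STAR 2.7.11a, DESeq2 and CanFam3.1 are listed per the submitters' processing notes. Genes carry Ensembl dog identifiers. For the counting tool, the strandedness it assumed and the release of the gene models, the sources used here give nothing. Overlapping genes may share reads. The authors deposited log2 values of the variance-stabilizing transformation. Columns were matched to dogs by number.

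The inverse of the transformation gave whole reads for 100% of nonzero values in each library (within 0.01 reads), used for depth, normalized reads (size factors 0.461 to 1.39) and read shares. Levels and variability were tested on the deposited values with limma 3.58.1 in R 4.3.3 (intercept fit, trended prior, distance 1, Benjamini-Hochberg, threshold 0.05), after tests on simulated data. Other values were computed in Python 3.11.15 with numpy 2.4.6 and pandas 2.3.3. Libraries of each pair of dogs differed beyond sampling noise. The p-values use the spread between dogs, with 1 culture each. Members, gene lists and tests were chosen with earlier results of these data known. Named genes are every member in the table, the 2 highest and the lowest of each further pathway list, and the highest of each marker list. The neighbours CKAP2, UBE2Z, TRIM28, NMBR, CDK10 and PKD1L3, and the further markers besides the highest of each list, were named after their values were seen. So were SMPD1 and SMPD2. Overlaps come from the RefSeq table of UU_Cfam_GSD_1.0, not from Ensembl models on CanFam3.1, so they may differ from those in the counting. The RefSeq table held 26 of the 27 genes by symbol, 7 of them overlapping a protein-coding gene. That table gives no transcript or coding length, so differences between paralogs per length were not tested, and no sequence was used here. Alternatives covered the reference, the distance, scaling, pseudocounts, filters, the prior, thinning and leaving out each dog. Thinning was 1 random draw, with levels as log2 of the thinned reads plus 1 and the detected genes chosen anew.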

Additional observations from a re-analysis of the deposited data

Results flagged for a closer look

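In 2 of the 26 tested genes (7.69%) 1 dog stood apart from the other 3, its gap to the nearest of them taking nearly the whole range, and this held for 5.36% of all detected genes. About 1 in 20 groups is expected to do so by chance. VPS36, the ESCRT-II subunit, was low in dog 4 at a level of 1.45, against 1.84 to 1.91 in the others. CHMP2B was high in dog 4 at 1.39, against 0.98 to 0.99. After thinning to the same depth, which also changed the scale and the reference genes, neither met this criterion. The gap of dog 4 to the nearest dog changed little, from 0.40 to 0.38 for each. The summed reads of ESCRT-II genes were low in dog 4, at 36.7 CPM against 53.9 to 56.8. The summed reads of VPS4B and VTA1 were also low in dog 4, at 41.7 CPM against 72.1 to 75.2.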

How the results depend on the processing

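Of 494 levels recomputed for single genes under 19 alternatives, 440 kept direction and call. With the reference set to genes with reads in all 4 dogs, 10 members and 3729 of all genes were above and the median level of members was 0.94. SNF8 (-0.076) and ARRDC1 (-0.67) then changed sign. With all genes of the table as reference, 11406 genes were above, 0 members and 0 genes were below, the median level was 5.16, and VPS37B (3.14) and SMPD3 (0.38) turned positive. At a distance of 2, 7 members and 3289 genes were above. Testing only genes with reads in all 4 dogs left 2830 genes below, and testing every gene of the table gave 19520, with 2 members below, since undetected genes enter. After thinning, 4 genes passed the variability test and ARRDC1 was at -0.16. Leaving out 1 dog, with the reference genes chosen anew, gave median levels of 1.46 to 1.64, ARRDC1 levels of -0.29 to 0.12 and 0 to 1 genes past the variability test. In refits chosen after seeing the data that kept the reference genes of all 4 dogs, 4, 1 and 15 genes passed it without dogs 2, 3 and 4, and ARRDC1 was at -0.055 without dog 4. No member passed the variability test in any of these. With the reference genes kept, 16 of the 17 calls above held without any 1 dog, CHMP7 losing its call without dog 1, 2 or 3. Thinning lost the calls of VPS37C and CHMP7, and a prior without trend that of CHMP7. Where no construction is named, the cause was not tested. Quantile normalization, pseudocounts of 0.5 and 1 and the filters changed no call of a tested member. Length-corrected levels were not run. No paired analysis was possible because the labels give 1 group. Depth limits SMPD3 and CHMP4C, with at most 9 reads per library.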
